A study of Homo sapiens with 4 samples.

Results

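The miRNA repertoires of HT-29 and LS174T cells were compared on the 4 arrays of the series, 2 from each cell line. Both are established human colonic adenocarcinoma lines, and the study chose them because they differ in their share of cells with CD133, a surface protein used to mark colon cancer progenitor cells. Each line had been stably transfected with pGenesil-1.1, an EGFP plasmid that carries a G418 resistance gene. The shRNA-Ascl2 plasmid expresses a short hairpin RNA against ASCL2, a basic helix-loop-helix transcription factor of intestinal stem cells, and the shRNA-Ctr plasmid carries no insert. Crossing line and vector gives 4 groups, written vector first as in shRNA-Ascl2/HT-29, and each was measured on 1 array. HT-29 transfectants were kept in a higher concentration of G418 than LS174T transfectants, so the line and the drug concentration cannot be told apart. Stable clones had been established, and which clone each array represents is not given in the sources used here. The arrays carry no probe for ASCL2 mRNA, so the knockdown could not be checked in these RNAs.

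The members of the comparison were all human miRNA probes, 1276 of the 2680 probe IDs on the array, each printed as 4 spots. HT-29 was set against LS174T within each vector, the shRNA-Ascl2 arrays with each other and the shRNA-Ctr arrays with each other. The 2 comparisons share no array. A value is a scaled intensity, the background-subtracted mean of the 4 spots scaled so that the typical miRNA has the same level on every array. Values at or below 50 were taken as not measurable and set to 50 before a ratio was formed, and a fold against such a value is written as "at least". A probe was compared if its brighter array exceeded 50 under each vector, which held for 564 human probes. A probe was called line-biased where the lines differed at least 2-fold in 1 direction under both vectors. That is a filter on size, not a test. With 2 arrays against 2, an exact permutation test cannot go below a two-sided p of 0.33.

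A miRNA is a short RNA cut from a hairpin precursor. It guides an Argonaute protein to messenger RNAs that pair with its seed, bases 2 to 8, and lowers their translation or stability. The 2 arms of a hairpin can each give a mature miRNA, the one named as the less abundant being written with an asterisk in the probe names used here. Neighbouring hairpins are often cut from 1 transcript. In colonic epithelium the miR-200 family holds down the repressors ZEB1 and ZEB2 and so maintains the epithelial state, while miR-192 and miR-194 mark intestinal epithelium. Colon cancer lines differ in the miRNAs of the HOX gene clusters, which keep a record of position along the body axis, and in miRNAs such as miR-31 that are linked to serrated and invasive tumours.

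The mature sequences below belong to a selection of the line-biased miRNAs and to relatives of some of them. The selection is not a ranking, and some of its members did not keep their call in both sets of blocks. Of the 51 line-biased miRNAs, 39 matched a mature sequence in RefSeq (GRCh38.p14). The seed is in capitals, and sequences run 5′ to 3′. The first 8 are from miRNAs brighter in HT-29, each from a separate precursor or arm.
miR-205: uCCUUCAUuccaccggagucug
miR-196a: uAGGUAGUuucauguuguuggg
miR-10a: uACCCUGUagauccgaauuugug
miR-10a*: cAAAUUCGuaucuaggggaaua
miR-31: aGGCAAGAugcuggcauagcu
miR-142-3p: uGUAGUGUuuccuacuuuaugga
miR-455-3p: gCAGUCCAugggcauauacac
miR-455-5p: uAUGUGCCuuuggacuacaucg

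The next 9 are from 2 sets of neighbouring hairpins and from the miR-221 pair, all brighter in HT-29, with let-7i and miR-98 shown because they share the let-7e seed.
miR-99b: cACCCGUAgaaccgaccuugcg
let-7e: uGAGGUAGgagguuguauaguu
miR-125a-5p: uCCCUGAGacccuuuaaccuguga
let-7i: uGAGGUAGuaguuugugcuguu
miR-98: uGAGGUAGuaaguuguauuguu
miR-224: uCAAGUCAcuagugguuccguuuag
miR-452: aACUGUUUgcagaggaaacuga
miR-221: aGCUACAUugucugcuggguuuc
miR-222: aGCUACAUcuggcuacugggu

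The last 6 hold the miRNAs brighter in LS174T, miR-148a, both arms of miR-9 and miR-345, with miR-152 and miR-148b shown because they carry the seed of miR-148a.
miR-148a: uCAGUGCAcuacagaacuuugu
miR-152: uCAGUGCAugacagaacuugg
miR-148b: uCAGUGCAucacagaacuuugu
miR-9: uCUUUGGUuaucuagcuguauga
miR-9*: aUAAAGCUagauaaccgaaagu
miR-345: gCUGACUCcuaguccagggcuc

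One array stood apart, and the shRNA-Ctr values below are given with that in view. On the shRNA-Ctr/LS174T array the median spike-in control, a probe for an added synthetic RNA, read 159, against 1168 to 1435 on the other 3 arrays. The spike-in controls therefore gave a median HT-29 to LS174T ratio of 0.92 under shRNA-Ascl2 and 6.94 under shRNA-Ctr. The 99th percentile of human probes was 4378 on the shRNA-Ctr/LS174T array and 12959 to 14710 on the others. Of the 564 human probes, the 141 brightest had a median log2 ratio of 0.01 under shRNA-Ascl2 and 1.53 under shRNA-Ctr, while the 3 dimmer classes of 141 probes had medians from -0.33 to -0.57 under shRNA-Ctr. Of the 141 brightest, 83 were at least 2-fold higher in HT-29 under shRNA-Ctr and 18 under shRNA-Ascl2. The part of this array in the shRNA-Ctr ratios was not tested. Landmark spots showed that blocks 19 to 36 of the slide read from 0.58 to 1.27 times blocks 1 to 18, so each call was also looked at in either set of blocks.

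**Figure D1:**
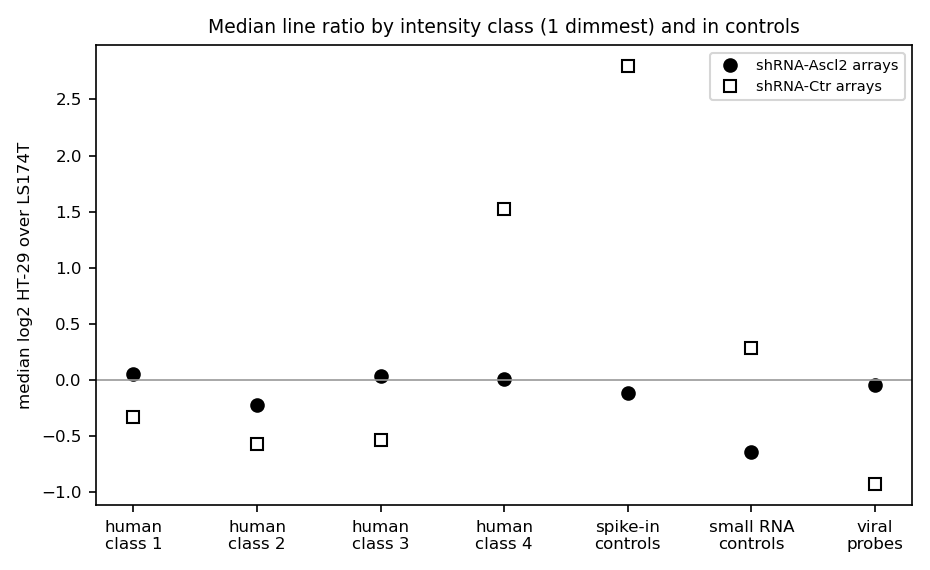
Median log2 ratio of HT-29 over LS174T (vertical axis) in 4 classes of human miRNA probes of equal size, from the dimmest (class 1) to the brightest (class 4), and in 3 kinds of control probe, for the shRNA-Ascl2 arrays (filled circles) and the shRNA-Ctr arrays (open squares). Under shRNA-Ascl2 the 4 classes lie between -0.23 and 0.05, while under shRNA-Ctr the brightest class lies at 1.53 with the spike-in controls above it.

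Under shRNA-Ascl2, 46 of 591 human probes read at least 2-fold higher in HT-29 (7.78%) and 77 at least 2-fold higher in LS174T (13%). Under shRNA-Ctr the counts were 157 (25%) and 132 (21.1%) of 627. Under both vectors, 29 of the 564 human probes were higher in HT-29 (5.14%) and 22 were higher in LS174T (3.9%). Another 23 were at least 2-fold apart in opposite directions, and only 298 of the 564 had the same sign under both vectors. The 29 made up 63.0% of the shRNA-Ascl2 list and 18.5% of the shRNA-Ctr list, and the 22 made up 28.6% and 16.7%. With the shRNA-Ctr/LS174T array left out and both HT-29 arrays set against the shRNA-Ascl2/LS174T array, a choice made after seeing the data that mixes vectors, 26 of the 29 and 17 of the 22 were still called. The shRNA-Ascl2 ratio had already passed to make each call, so only the ratio of shRNA-Ctr/HT-29 to that same LS174T array was new. The balance of calls depended on the scaling, at 38 and 9 with no scaling, 27 and 31 with scaling on the 75th percentile and 16 and 32 with scaling on the spike-in controls, which put the median shRNA-Ctr ratio of all probes at -2.99 (log2) in place of -0.27. The HT-29 calls were bright, with 20 of 29 above a mean of 500, and the LS174T calls were mostly dim, with 5 of 22 above it. In 22 of the 29 and 12 of the 22, every single spot of the higher line exceeded every spot of the other. These are the same spots whose means made the calls, and they are repeats within an array, not replicates of a line. miR-107, which was not called, was also separated in this way. The limma model with vector and line as terms called 0 of 601 miRNA probes at an adjusted p under 0.05 (0%). It had 1 residual degree of freedom, and its lowest adjusted p was 0.31. Of the 601, 30 had an unadjusted p under 0.05, about the number expected at that limit with no line difference. Of these, 24 were higher in HT-29 and 6 higher in LS174T. All 30 were human probes.

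**Figure D2:**
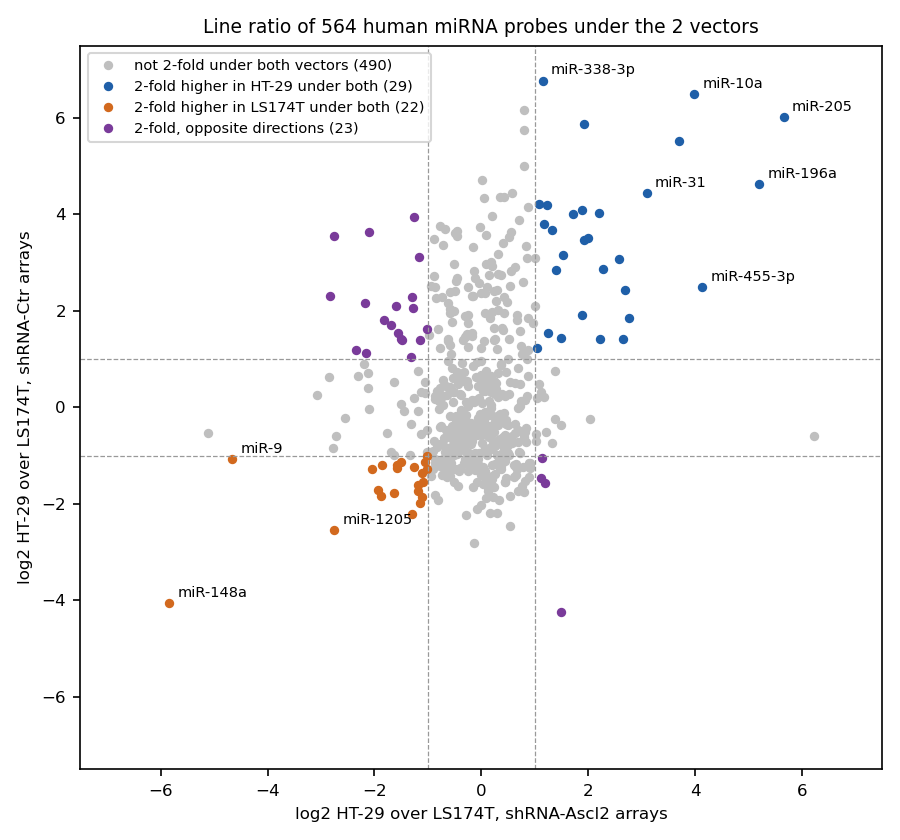
Log2 ratio of HT-29 over LS174T for 564 human miRNA probes on the shRNA-Ascl2 arrays (horizontal axis) and the shRNA-Ctr arrays (vertical axis), with dashed lines at 2-fold. The 29 probes higher in HT-29 under both vectors lie upper right, the 22 higher in LS174T lower left with miR-148a farthest out, and 23 probes differed in opposite directions.

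miR-205, which holds down ZEB1 and ZEB2 and is known from stratified and glandular epithelia rather than from gut, was the miRNA most restricted to HT-29. It read 2531 ± 517 (SD over 4 spots, as in all values given with ±) on the shRNA-Ascl2 array of HT-29 and 3224 ± 1868 on the shRNA-Ctr array. On the LS174T arrays it read -3.57 ± 9.22 and 46.2 ± 13.4, both not measurable. The lines did not overlap in any spot, and HT-29 was at least 50.6-fold higher under shRNA-Ascl2 and at least 64.5-fold higher under shRNA-Ctr. The limma fit gave the lowest p of all probes here, 0.00051 unadjusted and 0.31 adjusted. The precursor lies at chromosome 1 209432133-209432242 (+ strand), and its other arm, miR-205*, differed by less than 2-fold, with log2 ratios of 0.64 and -0.53. miR-203, an epidermal miRNA listed with miR-205, went the other way under shRNA-Ascl2, at 831 in HT-29 and 4106 in LS174T, and read 906 and 576 under shRNA-Ctr.

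The miRNAs of the HOX clusters formed the group with the largest line difference under shRNA-Ascl2. All 6 probes of the list were compared. Of these, 4 were higher in HT-29 under both vectors, beside 5.14% of all compared probes, and 0 in LS174T, beside 3.9%. Of the 4, miR-10a and miR-10a* are arms of the same hairpin. The median log2 ratios of the list were 2.72 and 2.37, against -0.01 and -0.27 over all 564 probes. miR-196a, which targets HOXB8 and HOXC8, read 1837 ± 128 and 1338 ± 430 in HT-29 and 16.0 ± 5.57 and 54.1 ± 20.3 in LS174T. That was at least 36.7-fold under shRNA-Ascl2, where LS174T was not measurable, and 24.7-fold under shRNA-Ctr. The value of 54.1 lies below the highest negative control of the shRNA-Ctr/LS174T array, 69.1, so the 24.7-fold is uncertain. The mature form is encoded at 2 places, chromosome 17 48632532-48632553 and chromosome 12 53991762-53991783, in the HOXB and HOXC regions, and a probe cannot tell them apart.

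miR-10a, which lies on the same strand of chromosome 17 at 48579838-48579947 and targets HOX transcripts, was among the brightest miRNAs of HT-29. It read 11453 ± 2582 and 12812 ± 5323 in HT-29 and 723 ± 347 and 143 ± 18.7 in LS174T, a ratio of 15.8 under shRNA-Ascl2 and 89.8 under shRNA-Ctr. limma put the difference at 5.24 ± 0.86 (log2, SE) with an adjusted p of 0.37. The other arm, miR-10a*, gave 690 and 709 in HT-29 and 107 and 131 in LS174T, so both arms of this hairpin were brighter in both HT-29 transfectants. miR-10b, the sister miRNA of the HOXD region on chromosome 2, was dimmer and differed in the same direction, at 338 and 471 in HT-29 and 22.8 and 131 in LS174T. miR-196b of the HOXA region was less biased, at 632 and 525 in HT-29 and 468 and 107 in LS174T, and miR-196a* was slightly higher in LS174T, with log2 ratios of -0.68 and -0.63.

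**Figure D3:**
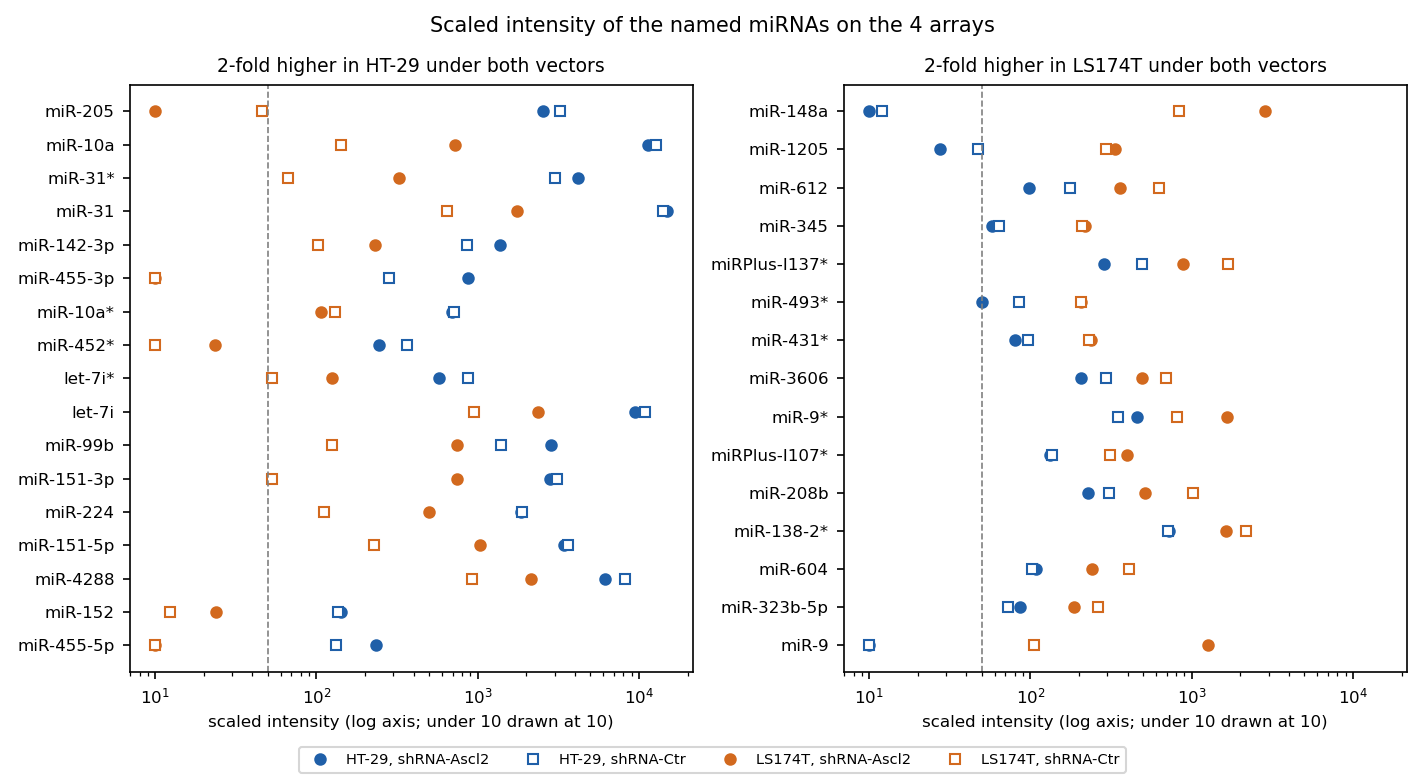
Scaled intensity (log axis, values under 10 drawn at 10) of miRNAs at least 2-fold higher in HT-29 under both vectors (left) and in LS174T (right) on the 4 arrays, HT-29 in blue, LS174T in orange, shRNA-Ascl2 filled circles and shRNA-Ctr open squares, with a dashed line at the limit of 50. In each row both arrays of 1 line lie to the right of both arrays of the other, and miR-205 and miR-148a show the widest gaps.

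miR-31, an invasion-linked miRNA raised in serrated and advanced colorectal tumours, was the brightest of the strongly biased miRNAs. It read 15003 ± 4230 and 14006 ± 6757 in HT-29 and 1758 ± 280 and 644 ± 46.5 in LS174T. LS174T therefore had a clear miR-31 signal that was 8.53-fold lower under shRNA-Ascl2 and 21.7-fold lower under shRNA-Ctr, and no spot overlapped. Its passenger arm miR-31* read 4211 ± 1618 and 3036 ± 2118 in HT-29 and 324 ± 81.2 and 66.2 ± 15.0 in LS174T, with spots that overlapped between the lines. The value of 66.2 lies below the highest negative control of the shRNA-Ctr/LS174T array, 69.1. Of the miRNAs listed as raised in colorectal cancer, 9 were compared, and 3 of them were higher in HT-29 under both vectors, miR-31, miR-31* and miR-224, beside 5.14% of all compared probes. Of the 3, miR-31 and miR-31* are arms of 1 hairpin. The miR-183, miR-96 and miR-182 cluster, which is co-transcribed, had log2 ratios of 0.87, -0.49 and 0.37 under shRNA-Ascl2 and 1.18, 2.41 and 2.75 under shRNA-Ctr. miR-135b, which targets APC, was 2-fold apart in opposite directions under the 2 vectors. The list had medians of 0.37 and 3.56 on the log2 scale. Under shRNA-Ctr 8 of the 9 were at least 2-fold higher in HT-29, beside 25% of all human probes and 83 of the 141 brightest.

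Both arms of miR-455, an intronic miRNA of the collagen gene COL27A1, were seen in HT-29 only. miR-455-3p read 877 ± 312 and 282 ± 41.0 in HT-29 and -0.28 and -2.64 in LS174T, at least 17.5-fold and at least 5.64-fold. miR-455-5p read 234 and 133 in HT-29 and -0.82 and 3.96 in LS174T, and in blocks 19 to 36 it was below 2-fold under shRNA-Ascl2, at 0.83 (log2). Neither arm gave a measurable signal in LS174T under either vector. miR-142-3p, best known from blood cells, read 1383 ± 450 and 864 ± 25.1 in HT-29 and 231 ± 38.3 and 103 ± 26.6 in LS174T. The blood cell markers did not share 1 direction. miR-150, a lymphocyte miRNA, was called in LS174T, at 271 and 243 in HT-29 and 574 and 708 in LS174T, although in blocks 19 to 36 its shRNA-Ascl2 log2 ratio was -0.36. miR-142-5p was at 90.0 or below on every array, miR-223 exceeded 50 on 1 array only, and the 7 listed blood markers summed to 1915 and 1300 in HT-29 and 1003 and 1765 in LS174T.

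Several of the called probes were neighbours in the genome. The miR-99b, let-7e and miR-125a hairpins lie within chromosome 19 51692612-51693339 on the plus strand. miR-99b, of the family that targets mTOR, read 2835 and 1392 in HT-29 and 749 and 126 in LS174T. let-7e read 4382 and 3604 in HT-29 and 2138 and 1536 in LS174T. miR-125a-5p, which targets ERBB2 and ERBB3, read 8650 and 7757 in HT-29 and 3838 and 556 in LS174T. All 3 were called in HT-29, with ratios of 3.79, 2.05 and 2.25 under shRNA-Ascl2. Under shRNA-Ctr miR-99b and let-7e had log2 ratios of 3.47 and 1.23. Of the 3, only miR-125a-5p kept its call in both sets of blocks. In blocks 19 to 36 let-7e had the opposite direction, with a mean log2 ratio of -0.74, and in blocks 1 to 18 miR-99b was at -0.36 under shRNA-Ctr. Against the shRNA-Ascl2/LS174T array, the shRNA-Ctr/HT-29 array gave log2 ratios of 0.89 for miR-99b and 0.75 for let-7e, both below 2-fold. The passenger arms let-7e* and miR-125a-3p were above 2-fold under shRNA-Ascl2 only.

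The miR-224 and miR-452 hairpins share an intron of GABRE at chromosome X 151958578-151959712 on the minus strand. miR-224 read 1846 ± 503 and 1895 ± 84.5 in HT-29 and 499 ± 102 and 112 ± 12.8 in LS174T. miR-452 read 671 and 1245 in HT-29 and 268 and 97.6 in LS174T, and miR-452* read 243 and 366.8 in HT-29 and 23.7 and -4.75 in LS174T. All 3 listed members of this cluster were thus higher in HT-29 under both vectors, beside 5.14% of all compared probes. The medians were 1.89 and 3.67 on the log2 scale, and miR-452 and miR-452* are arms of 1 hairpin. The spots of miR-452 overlapped between the lines, with a spot SD of 580 around 671 in HT-29 under shRNA-Ascl2. In blocks 19 to 36 its shRNA-Ascl2 log2 ratio was -0.23. The fourth arm, miR-224*, differed by less than 2-fold, with log2 ratios of 0.37 and 0.89.

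miR-221 and miR-222, which lie within chromosome X 45746157-45747124 and hold down the cell cycle inhibitor CDKN1B, share a seed and 11 of 21 bases from the 5′ end. miR-221 read 10701 ± 2476 and 9585 ± 6397 in HT-29 and 4560 ± 162 and 521 ± 101 in LS174T. Its ratios were 2.35 and 18.4, and its spots overlapped between the lines. miR-222 read 17111 and 17089 in HT-29 and 9792 and 530 in LS174T, ratios of 1.75 and 32.3. Both were higher on both HT-29 arrays, but under shRNA-Ascl2 miR-222 was below 2-fold. miR-421 on the same chromosome read 230 and 189 in HT-29 and 62.4 and 9.49 in LS174T, while its neighbour miR-374b had log2 ratios of 0.21 and 1.98.

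The let-7 family, repressors of RAS and LIN28 pathway genes, did not differ as a block. All 9 family members share the seed printed above and all were compared. let-7i and let-7e were higher in HT-29 under both vectors and the other 7 were not, beside 5.14% of all compared probes. Family medians were 0.11 and 1.10 on the log2 scale. let-7i read 9384 ± 5313 and 10905 ± 11998 in HT-29 and 2361 ± 405 and 952 ± 522 in LS174T, and its spots overlapped between the lines where the spread in HT-29 was large. In blocks 19 to 36 its shRNA-Ctr log2 ratio was -0.34. Its other arm, let-7i*, read 578 and 865 in HT-29 and 125 and 52.8 in LS174T, with no overlap of spots. The value of 52.8 lies below the highest negative control of its array, 69.1. miR-98 differed by 0.77 and 1.10 on the log2 scale. let-7c went in the LS174T direction under shRNA-Ctr, at -2.11, and was level under shRNA-Ascl2, at -0.09.

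miR-148a was the mirror image of miR-205. This miRNA, known for targeting DNA methyltransferases and for its abundance in gut and liver epithelium, read -1.44 ± 7.05 and 12.1 ± 14.1 on the HT-29 arrays, not measurable on either. On the LS174T arrays it read 2861 ± 233 and 838 ± 271. LS174T was at least 57.2-fold higher under shRNA-Ascl2 and at least 16.8-fold higher under shRNA-Ctr, and no spot overlapped. Only 2 miRNAs read above 200 on both LS174T arrays and at or below 50 on both HT-29 arrays, miR-148a and miR-1205, and 3 did the reverse, miR-205, miR-452* and miR-455-3p. The limma adjusted p for miR-148a was 0.37. Its precursor lies at chromosome 7 25949919-25949986.

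The seed of miR-148a is carried by 2 other miRNAs, and both leaned towards HT-29. miR-152, which shares 18 of 21 bases with miR-148a, read 142 ± 12.3 and 136 ± 52.3 in HT-29 and 23.9 ± 7.21 and 12.4 ± 10.3 in LS174T, at least 2.83-fold and at least 2.72-fold. miR-148b, which shares 20 of 22 bases, read 2014 ± 260 and 1758 ± 332 in HT-29 and 1120 ± 218 and 174 ± 106 in LS174T, ratios of 1.80 and 10.1. Since these 3 sequences differ at few positions, cross-hybridisation between the probes was possible. In HT-29 the miR-148a probe read at or near 0 while the miR-148b probe read 2014 and 1758.

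Both arms of miR-9, a miRNA of neural progenitors, were higher in LS174T. miR-9 read 7.46 ± 3.72 and 2.91 ± 4.29 in HT-29 and 1266 ± 171 and 105 ± 23.6 in LS174T. The lines did not overlap, but the size rested on the shRNA-Ascl2 arrays, at least 25.3-fold against at least 2.10-fold under shRNA-Ctr. miR-9* read 455 and 351 in HT-29 and 1655 and 810 in LS174T. In blocks 1 to 18 the shRNA-Ctr log2 ratios were below 2-fold, at -0.93 for miR-9 and -0.54 for miR-9*. Of the 5 neuronal markers compared, these 2 arms were the only ones called, beside 3.9% of all compared probes called in LS174T. The other 3, miR-124, miR-128 and miR-219-5p, had log2 ratios of 0.66, 0.30 and 0.05 under shRNA-Ascl2 and -1.17, 2.77 and 1.37 under shRNA-Ctr. The defining miRNAs miR-137, miR-138 and miR-218 were at or below 50 on all 4 arrays. The list summed to 1882 and 1298 in HT-29 and 3942 and 1810 in LS174T.

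The other miRNAs higher in LS174T were mostly dim and close to the 2-fold limit. miR-345 read 57.5 ± 28.6 and 63.8 ± 56.8 in HT-29 and 218 ± 45.6 and 210 ± 109 in LS174T. miR-612 read 98.2 and 175 in HT-29 and 361 and 625 in LS174T, and miR-1205 read 27.4 and 47.2 in HT-29 and 336 and 293 in LS174T. Both gave similar folds under the 2 vectors, 3.67 and 3.56 for miR-612 and at least 6.72 and at least 5.87 for miR-1205. miR-138-2*, the brightest of the group, read 725 and 712 in HT-29 and 1640 and 2165 in LS174T, and the proprietary probe miRPlus-I137* read 285 and 489 in HT-29 and 880 and 1667 in LS174T. The remaining 14 had folds of 2.00 to 2.45 under the vector with the smaller one, with miR-218-2* just inside the limit. Only 6 of the 22 were also called in both sets of blocks and after a landmark correction, against 22 of the 29 higher in HT-29. The 6 were miR-148a, miR-1205, miR-612, miR-3176, miR-431* and miRPlus-I137*.

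Of the 22, miR-493* and miR-431* come from the maternally expressed DLK1-DIO3 cluster of chromosome 14. They read 50.1 and 84.6 in HT-29 against 206 and 205 in LS174T, and 79.9 and 96.9 against 238 and 231. miR-543 and miR-323b-5p of the same cluster were also called in LS174T, while miR-376a* was called in HT-29, at 407 and 366 against 64.9 and 138. The list of 29 cluster miRNAs does not include miR-493*, miR-431*, miR-323b-5p or miR-376a*. Of the 29, 17 were at or below 50 on all arrays, beside 622 of all 1276 human probes, and 10 were compared. Of the 10, only miR-543 was called under both vectors, beside 3.9% of all compared probes called in LS174T. The medians were -0.46 and -1.05 on the log2 scale.

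The 2 arms of a hairpin are measured by separate probes, which gives a second reading of a line difference. Of 17 precursors with both arms compared and at least 1 called, 7 had both arms called the same way, those of miR-31, miR-10a, let-7i, miR-151, miR-452, miR-455 and miR-9. In the other 10 the second arm was not called in either direction. Called arms whose partner was not compared are left out of these 17. miR-138-2* was called in LS174T, while miR-138 read 11.8 and 0.00 in HT-29 and 0.00 and -8.44 in LS174T. miR-376a* was called in HT-29, while miR-376a read 5.29 and -0.90 there and -3.02 and -6.59 in LS174T. miR-218, miR-493 and miR-431, partners of other called arms, were also not measurable on any array. miR-221* went slightly towards LS174T, with log2 ratios of -0.61 and -0.56, while miR-221 was called in HT-29. miR-151, an intronic miRNA of PTK2, had both arms brighter in HT-29, with miR-151-5p at 3428 and 3629 against 1037 and 226.

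**Figure D4:**
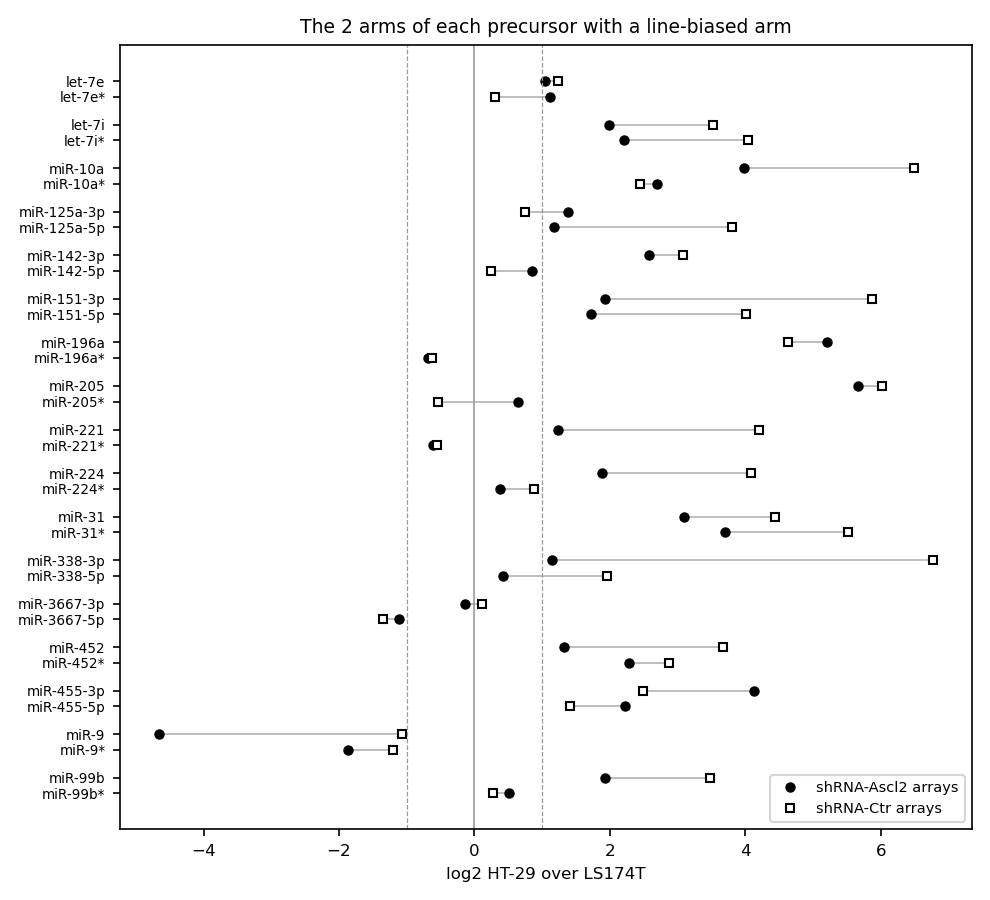
Log2 ratio of HT-29 over LS174T for both arms of each of the 17 precursors with at least 1 arm called, on the shRNA-Ascl2 arrays (filled circles) and the shRNA-Ctr arrays (open squares), with dashed lines at 2-fold. Both arms of miR-31, miR-10a, let-7i, miR-151, miR-452 and miR-455 lie right of 2-fold, both arms of miR-9 lie left of it, and miR-196a* and miR-221* lie on the opposite side of zero from their partners.

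Several groups gave no call under both vectors. Over all compared probes, 5.14% were called in HT-29 and 3.9% in LS174T. A count of 0 in a short list, here and below, therefore does not set that list apart. The epithelial miR-200 family was bright in both lines, with miR-200a, miR-200b and miR-141 among the 5 brightest human probes on 3 of the 4 arrays. On the shRNA-Ctr/LS174T array they ranked 17, 13 and 7. Under shRNA-Ascl2 the 5 members had ratios of 0.66 to 1.62, miR-141 being lower and miR-429 higher in HT-29. Under shRNA-Ctr all 5 were higher in HT-29, by 5.28 to 14.6-fold, beside a spike-in ratio of 6.94. The family was therefore called in 0 of 5 under both vectors, with medians of 0.09 and 2.96 on the log2 scale.

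The intestinal miRNAs miR-192 and miR-194 were present in both lines. miR-192 read 3747 and 4512 in HT-29 and 8953 and 295 in LS174T, and miR-194 read 11110 and 10924 in HT-29 and 15173 and 871 in LS174T. The 2 LS174T arrays lay on either side of the HT-29 pair for both miRNAs, so no line difference can be read from them. miR-215, which has nearly the sequence of miR-192, exceeded 50 on 1 array only.

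The secretory list, miR-375 and the arms of miR-7, also gave 0 calls of 4. miR-375, a miRNA of neuroendocrine and goblet cells, read 1961 and 983 in HT-29 and 1578 and 1610 in LS174T, so the lines overlapped. miR-7 read 11529 and 13164 in HT-29 and 11430 and 503 in LS174T. Of the 11 compared members of the miR-17-92 cluster and its paralogues, which drive proliferation, 0 were called under both vectors. Under shRNA-Ascl2 their log2 ratios ran from -0.84 to 0.25 with a median of -0.24. Under shRNA-Ctr 10 of the 11 were at least 2-fold higher in HT-29, with a median of 1.85. That was beside 25% of all human probes and 83 of the 141 brightest. The 4 compared members of the miR-15/16 family gave 0 calls, with medians of -0.70 and 2.93. Under shRNA-Ctr 3 of the 4 were at least 2-fold higher in HT-29, beside the same shares. The 7 members of the miR-23/27/24 clusters also gave 0 calls, with medians of -0.25 and 0.51.

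Further lists gave at most 1 call each. Relatives of miR-130 (with miR-454 and miR-301) had 0 calls of 4 (medians 0.29 and 3.20), the miR-181 family 0 of 3 (0.67 and 1.81) and the inflammation-linked miRNAs 0 of 3 (-0.48 and -0.39). Of 6 compared miR-30 members, miR-30d was called in HT-29, with list medians of 0.10 and 1.46. The placental chromosome 19 cluster had 0 calls of 5 (0.36 and -0.87). Of its 18 probes, 13 were at or below 50 on all arrays, beside 622 of all 1276 human probes. The X-linked miR-506 to miR-514 cluster had 0 calls of 2 (-0.90 and -0.42).

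Being at or below 50 on all arrays held for 622 of all 1276 human probes, so it does not by itself set a marker list apart. Of 11 stromal, endothelial and muscle miRNAs, 5 were at or below 50 on all arrays, miR-145 among them. miR-143 reached 53.3 on the shRNA-Ctr/LS174T array alone, and the list summed to 606 to 983 on the 4 arrays. miR-126, an endothelial miRNA, read 91.9 and 78.3 in HT-29 and -0.82 and -11.9 in LS174T, ratios of at least 1.84 and at least 1.57. Of the 10 probes of the pluripotency clusters of miR-302 and miR-371, 7 were at or below 50 on all arrays and 0 were called in the same direction under both vectors.

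**Figure D5:**
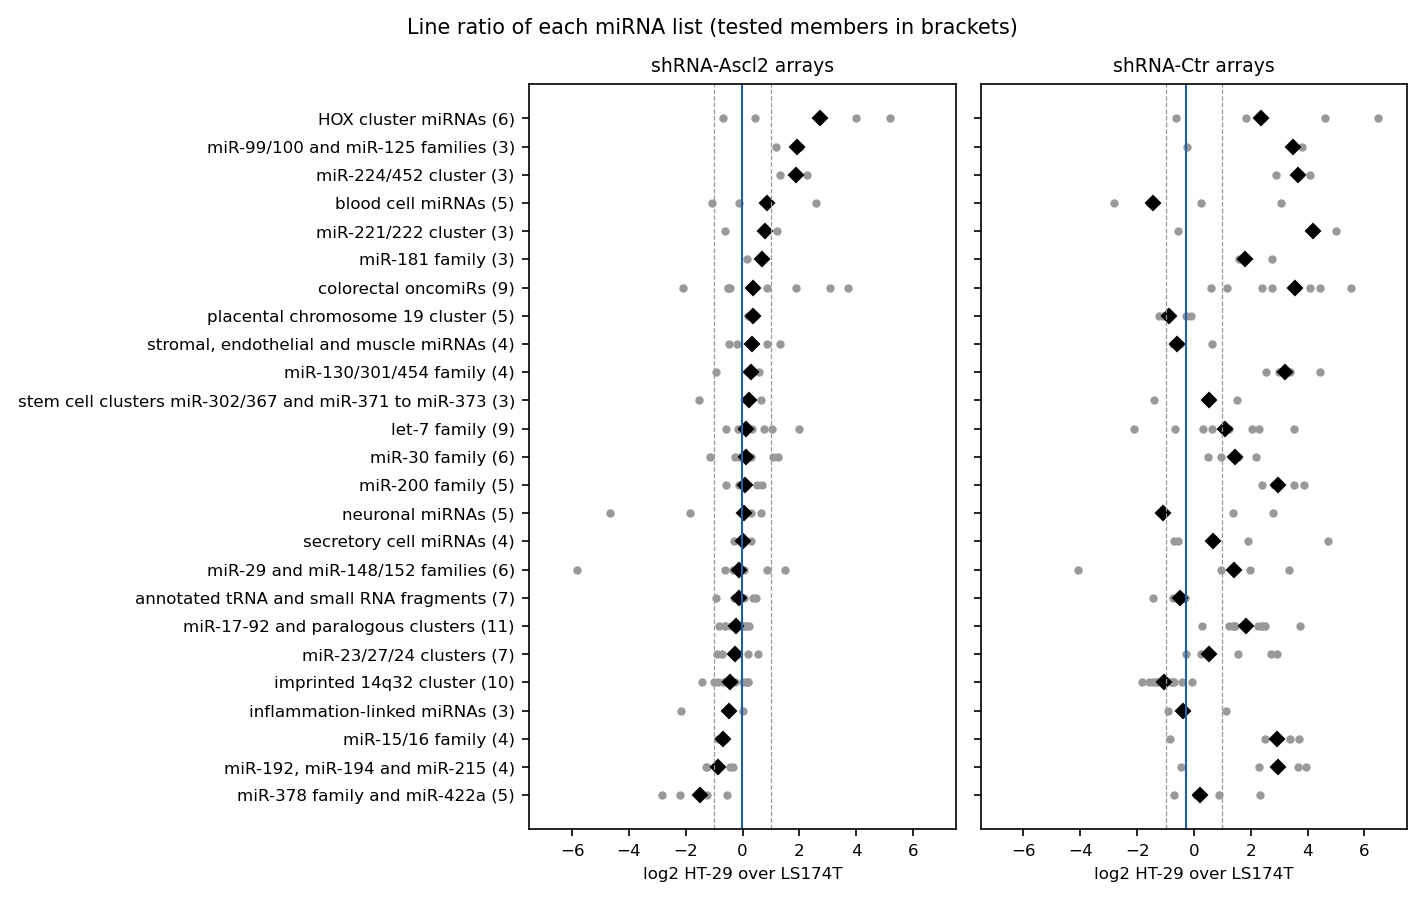
Log2 ratio of HT-29 over LS174T for the compared members (grey circles) of each miRNA list reported here with at least 3 of them, and the list median (black diamonds), under shRNA-Ascl2 (left) and shRNA-Ctr (right), with a blue line at the median of all 564 probes and dashed lines at 2-fold. HOX cluster miRNAs have the highest median under shRNA-Ascl2, 2.72, and the miR-378 family the lowest, -1.50, while bright epithelial lists such as the miR-200 family shift to the right under shRNA-Ctr only.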

How the data were processed

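Total RNA from the 4 stable transfectants was labelled with the Hy3 dye and hybridised by the authors to a 1-colour locked nucleic acid miRNA array whose probe names follow an older miRBase release. The deposited intensity values are GenePix spot signals of each scanned slide, not yet normalised, and the deposited value table holds each probe's median background-subtracted intensity over its spots divided by an array factor. The authors' own lists of changed miRNAs were not used. Here the foreground mean minus the background median was averaged over 4 spots per probe and scaled on the median of 471 miRNA probes above 50 on all 4 arrays. Groups came from the sample labels, 1 array per group, so no biological replicate exists and the SD given is between spots of 1 array. Ratios were formed within each vector with a floor of 50 and a 2-fold limit. The line term was tested with limma 3.58.1 (R 4.3.3) on log2 intensity over 601 human and viral probes with a mean above 50, with Benjamini-Hochberg adjusted p. The fit was tested on simulated data. Median spot variation was 13.0% to 24.5% of the mean for probes above 200, and 4 to 10 spots per array were at the top of the scanner range. From 520 to 561 human probes exceeded 50 per array. The highest negative control read 31.1 to 69.1.

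The miRNAs named are those first ranked by the smaller of the 2 ratios (12 per direction above 50 on all arrays and 6 per direction not measurable in the other line), the 5 brightest per array, members of the lists, and probes opposite under the vectors. Names were matched to 28 lists holding 223 names, of which 219 had a probe analysed here. The results of 1 list are not reported here. The comparison and the lists were chosen with earlier results of these data known. Alternatives varied scaling, background, limits, fold and the blocks of the slide used.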

Additional observations from a re-analysis of the deposited data

Results flagged for a closer look

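Under the 2 vectors, 23 human probes were at least 2-fold apart between the lines in opposite directions, and the difference between vectors was not tested. The 6 with the largest smaller ratio were miR-3146, miR-378c, miR-620, miR-135b, miR-1287 and miR-3666. In HT-29, miR-378c read 175 under shRNA-Ascl2 and 775 under shRNA-Ctr, and in LS174T it read 1250 and 156. miR-135b read 149 and 1138 in HT-29 and 636 and 91.8 in LS174T. Among the 1157 probe IDs to which the files give no name, 7 were at least 2-fold higher in HT-29 under both vectors and 21 in LS174T, of 492 that exceeded 50 under each vector.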

How the results depend on the processing

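The number of human miRNAs higher in HT-29 was 16 with spike-in scaling, 52 at 1.5-fold, 17 at 3-fold, 46 on the shRNA-Ascl2 arrays alone and 157 on the shRNA-Ctr arrays alone, against 29. The number higher in LS174T was 9 without scaling, 7 with normexp background, 10 without background subtraction, 38 with a limit of 25 or with no floor, 59 at 1.5-fold, 5 at 3-fold, 77 and 132 on either pair alone and 45 without the shRNA-Ctr/LS174T array, against 22. With quantile normalisation 25 of the 29 and 13 of the 22 were called again. limma called 10 higher in HT-29 and 2 in LS174T with scaling on the 75th percentile or landmark correction, 4 and 1 without scaling or with the median of spots, 5 and 1 with the authors' table, 1 and 0 in blocks 19 to 36 and 2 and 0 without the vector term. Other alternatives gave 0 and 0. miR-205 was called in all 7 of these, and the cause of the difference was not tested. All called probes had the same SE with scaling on the 75th percentile, 0.93, and with landmark correction, 0.96. In the main fit the SE differed between probes, at 0.60 for miR-205 and 0.86 for miR-10a. The counts of those settings therefore rest on another estimate of spread than the main fit. Of 41 named miRNAs, let-7e reversed with spike-in scaling (-0.28) and in blocks 19 to 36 (-0.74), and miR-30d with spike-in scaling (-0.022). Of all 646 values of the named miRNAs, 505 moved by less than that miRNA's own spread between the vectors. A miRNA that differed widely between vectors thus counts as unmoved, so the 505 do not measure stability. miR-125a-5p counted as unmoved from 2.49 to 1.07 with spike-in scaling. miR-612 counted as moved from -1.855 to -1.802 in blocks 1 to 18. The vector term of limma pairs the lines within each vector, and no replicate numbers could be paired because each group has 1 array. Depth is limited by 1 array per group, and probes near 50 lie at the level of the highest negative controls.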

Other observations

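Some miRNAs were far apart between the lines under shRNA-Ascl2 only, and these were picked after their values were seen. miR-190, from an intron of TLN2, read 20.5 and 13.2 in HT-29 and 1742 ± 111 (SD over 4 spots) and 72.5 in LS174T. It exceeded 50 on both LS174T arrays and on neither HT-29 array, and under shRNA-Ctr LS174T was at least 1.45-fold higher. miR-660, miR-502-3p, miR-362-5p and miR-500a/miR-500b, neighbours on the X chromosome, read 330 to 421 on the shRNA-Ascl2/LS174T array and 29.8 to 151 on the other 3. miR-625 read 28.2 and 35.4 in HT-29 and 343 and 89.1 in LS174T. In the other direction, miR-3125 read 4988 in shRNA-Ascl2/HT-29 with an SD of 9930 over its 4 spots, and 32.7 to 76.0 on the other arrays.

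The miR-378 family, whose main arms share a seed, includes an intronic miRNA of PPARGC1B. Under shRNA-Ascl2, 4 of its 5 members were at least 2-fold higher in LS174T, beside 13% of all human probes. Under shRNA-Ctr 0 of the 5 were, beside 21.1%, and a count of 0 in 5 does not set the family apart. miR-378 itself read 662 and 1853 in HT-29 and 3036 and 996 in LS174T. The tRNA and small RNA fragments annotated as miRNAs, miR-720 and miR-1260b among the brightest probes of every array, gave 0 calls of 7 under both vectors, with medians of -0.13 and -0.47 on the log2 scale.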
